A study of Mus musculus with 32 samples.

Results

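The clustered protocadherins are cell-surface adhesion proteins encoded by the adjoining alpha, beta and gamma gene clusters on mouse chromosome 18. Their genes were taken as all symbols that begin with Pcdha, Pcdhb or Pcdhg and end in an isoform number or letter, after the probes' RefSeq accessions had been matched to symbols. This gave 35 of the 20660 named genes on the array, read by 38 probes: 7 of the 14 alpha genes of the RefSeq table, 22 of the 22 beta genes and 6 of the 22 gamma genes. The alpha genes on the array were Pcdha4, Pcdha8, Pcdha9, Pcdha11, Pcdha12, Pcdhac1 and Pcdhac2, and the gamma genes were Pcdhga1, Pcdhga5, Pcdhga9, Pcdhga10, Pcdhgb1 and Pcdhgc5. The remaining 7 alpha and 16 gamma genes, Pcdhgc3 and Pcdhgc4 among them, were not analysed here.

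The study measured total RNA with 1-colour expression arrays in a mouse model of neuroblastoma, in which human MYCN is driven by the tyrosine hydroxylase promoter and is therefore expressed in catecholaminergic cells of the sympathetic lineage. All animals had the 129+Ter/SvJcl background and were 3 weeks old. The superior mesenteric ganglion (SMG) belongs to the sympathetic nervous system and was measured in 8 wild-type samples and in 8 samples from TH-MYCN hemizygotes. Primary spheres were grown from TH-MYCN hemizygotes for 8 days, in 8 cultures, and passaged spheres had gone through 5 passages, in 4 cultures that were each hybridised to 2 arrays. Both arrays of each passaged culture were averaged, so that n = 4 for passaged spheres and n = 8 for each other group. The submitters call these samples biological replicates without saying how animals or litters were assigned to them, so that p-values measure the spread between these samples.

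Each isoform of the clustered protocadherins is transcribed from its own promoter. In the alpha and gamma clusters the variable first exon is spliced to constant exons that all isoforms of the cluster share, whereas beta genes have a single coding exon and no shared cytoplasmic part. Single neurons transcribe a small, partly random set of isoforms, and homophilic recognition between cells with the same set serves self-avoidance of their processes. The C-type isoforms (Pcdhac1, Pcdhac2, Pcdhgc3, Pcdhgc4 and Pcdhgc5) lie at the ends of the alpha and gamma clusters and are regulated differently: Pcdhac2, for instance, is the main isoform of serotonergic neurons. Promoter choice needs the looping proteins CTCF and cohesin, and silent promoters carry DNA methylation placed by Dnmt3b, with further repression by Smchd1 and Setdb1.

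Levels are given as the log2 processed signal minus the 75th percentile of the array. A level of 0 therefore equals that percentile, and levels of different probes are not set against each other. Arrays of wild-type SMG had 60.4% to 65.7% of spots well above background, against 59.1% to 64.1% for TH-MYCN SMG, 57% to 59.7% for primary spheres and 49% to 53.9% for passaged spheres, so passaged spheres gave the fewest usable values for dim isoforms. The lowest level still well above background lay between -6.11 and -5.29 on wild-type SMG arrays and between -5.05 and -4.11 on passaged sphere arrays. Each of the 20 mature neuron markers was above background on at least 1 array of every group, and so was each glial, fibroblast, endothelial, smooth muscle and macrophage marker in both SMG groups. In passaged spheres 5 of 14 glial, 4 of 12 fibroblast, 4 of 12 endothelial, 6 of 9 smooth muscle and 5 of 10 macrophage markers were above background on none of the arrays. In these bulk samples, fewer cells of a type and less RNA per cell cannot be told apart.

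Most of the measured isoforms were detected in all 4 groups. A passaged culture counted as detected only where both of its arrays were well above background, whereas every other sample had 1 array. In wild-type SMG 27 of the 35 genes were well above background in every sample, against 26 in TH-MYCN SMG, 27 in primary spheres and 21 in passaged spheres. Over all named genes the same share was 70.4%, 69.3%, 64.4% and 58.6%. The beta cluster supplied most of these genes, with 19 of 22 in each SMG group, 20 in primary spheres and 16 in passaged spheres. In the alpha cluster 6 of 7 genes were detected in every sample of both SMG groups and of the primary spheres, and 4 in every passaged culture. In the gamma cluster, 2 of 6 genes were detected in every wild-type SMG sample and 1 in every sample of each other group, Pcdhga9. Where either array was enough, 23 of the 35 genes were detected in every passaged culture, 17 of them beta and 5 alpha genes. Pcdhac1 was not above background in any wild-type SMG or primary sphere sample and was above it in 1 of 8 TH-MYCN SMG samples, and Pcdhgc5 was above it in 3 of 8 wild-type SMG samples and in none of the other groups. Pcdhgc5 also differed between SMG samples 1 to 4 and 5 to 8, which were on separate slides. These ran from -5.41 to -4.33 and from -7 to -6.44 in wild-type SMG. In TH-MYCN SMG they ran from -5.94 to -5.45 and from -7.54 to -6.73. Pcdhac1 and Pcdhgc5 were too dim to enter a comparison, as were Pcdhga5, Pcdhga10 and Pcdhb1. Pcdhb19 was too dim in SMG to be compared between the genotypes.

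Some isoforms differed widely between sphere cultures of the same group, Pcdha4 most of all. Pcdha4 had an SD of 0.27 in wild-type SMG and 0.35 in TH-MYCN SMG, of 0.96 in primary spheres and of 2.63 in passaged spheres. Its levels in wild-type SMG ran from -2.43 over a median of -1.85 to -1.56, and in TH-MYCN SMG from -2.57 over -2.16 to -1.62. In primary spheres they ran from -3.36 over -2.23 to -0.46, a range that takes in all of the SMG samples of both genotypes. Passaged cultures 1 to 4 had Pcdha4 levels of -2.36, -6.82, -4.28 and -0.71. Culture 4 was thus brighter than every SMG sample, while cultures 2 and 3 were not well above background, which puts culture 4 at least 17-fold above culture 2. The arrays of any of these cultures differed by at most 0.17 for this gene. An SD as large as that of Pcdha4 in passaged spheres was found for 0.194% of the named genes. With the normexp background correction, which compresses dim signals, the SD was 1.09 there and 0.65 in primary spheres.

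Pcdha9 was ordered differently over the same cultures. Its levels in passaged cultures 1 to 4 were -3.48, 0.11, -3.69 and -2.51. Culture 2, the lowest for Pcdha4, was the highest for Pcdha9, 13.9-fold above culture 3, and the arrays of a culture differed by at most 0.07. The SD of 1.74 in passaged spheres fell to 0.63 without culture 2, so that it rests on that culture, and it was 1.11 with normexp. In primary spheres Pcdha9 ran from -3.28 over -1.58 to -0.48, with an SD of 0.97 against 0.40 in wild-type SMG and 0.31 in TH-MYCN SMG. The isoform Pcdha11 varied in primary spheres (lowest -4.78, median -3.69, highest -1.52, SD 1.05, or 0.42 with normexp). In passaged spheres its SD was 0.39, with levels of -3.28, -3.91, -4.17 and -4.05, the lower of them near the background of these arrays.

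**Figure D1:**
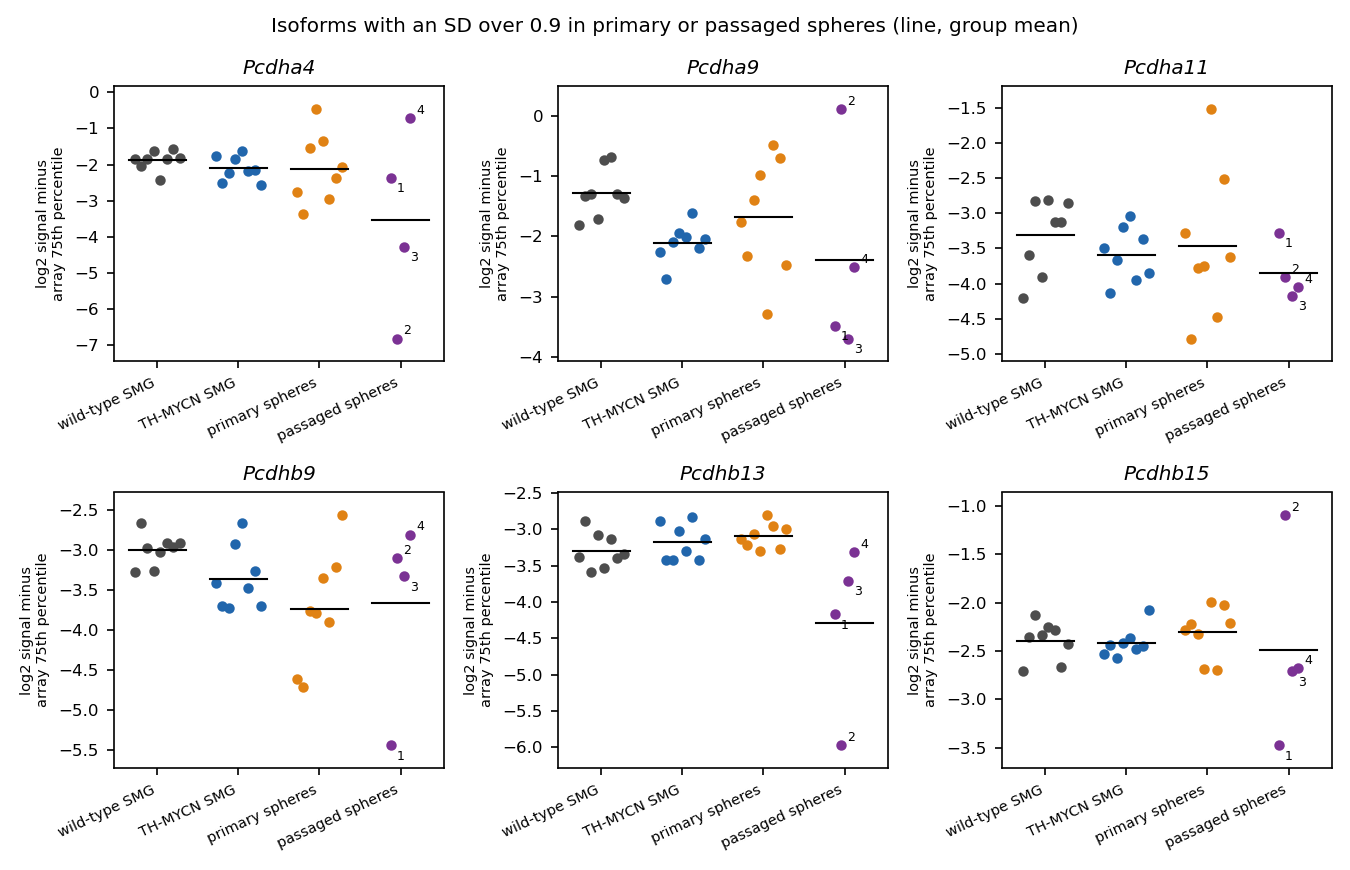
Level of 6 isoforms (log2 processed signal relative to the 75th percentile of its array) in each sample of the 4 groups, chosen for an SD over 0.9 in primary or passaged spheres; points are samples, lines are group means, and passaged cultures are numbered. Culture 2 is lowest for Pcdha4 (-6.82) and Pcdhb13 (-5.97) and highest for Pcdha9 (0.11) and Pcdhb15 (-1.10). The SMG samples lie closer together for Pcdha4 (-2.57 to -1.56). For Pcdha11 the wild-type SMG samples (-4.21 to -2.82) lie closer together than the primary cultures (-4.78 to -1.52). They do not lie closer together than the passaged cultures (-4.17 to -3.28).

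Among beta isoforms, Pcdhb9, Pcdhb13 and Pcdhb15 varied most over the passaged cultures. Pcdhb9 had levels of -5.44, -3.10, -3.33 and -2.81 in cultures 1 to 4, with culture 1 the lowest and not well above background; its SD of 1.20 became 0.26 without culture 1. Pcdhb13 had levels of -4.17, -5.97, -3.71 and -3.31, with culture 2 the lowest and cultures 3 and 4 well above background on both arrays, whereas its 8 primary cultures lay between -3.30 and -2.81. Pcdhb15 had levels of -3.47, -1.10, -2.71 and -2.68, with culture 2 now the highest. Without culture 2 the SD of Pcdhb13 went from 1.18 to 0.43 and that of Pcdhb15 from 1.00 to 0.45. With normexp the SDs of Pcdhb9, Pcdhb13 and Pcdhb15 were 0.46, 0.41 and 0.59. Pcdhb10 was lowest in culture 2 as well, at -1.86 against 0.02 for the highest, culture 3 (SD 0.82, and 0.27 without culture 2). Pcdhb7 was also lowest in culture 2, at -0.62, and highest in culture 3, at 1.03 (SD 0.70, and 0.30 without culture 3). No passaged culture was therefore the lowest or the highest for all of these isoforms. Among the other beta isoforms detected in every passaged culture, culture 2 was not the lowest for Pcdhb5, Pcdhb12 and Pcdhb22. It was the lowest for all the rest: Pcdhb2, Pcdhb3, Pcdhb4, Pcdhb6, Pcdhb14, Pcdhb16, Pcdhb17, Pcdhb18, Pcdhb20 and Pcdhb21. Without it the SD of Pcdhb2 went from 0.64 to 0.28 and that of Pcdhb14 from 0.6 to 0.25. The SDs of Pcdhb4 (0.41 and 0.43) and Pcdhb17 (0.22 and 0.25) did not fall.

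The C-type isoform Pcdhac2 varied little. Its levels in passaged cultures 1 to 4 were 3.09, 2.97, 3.02 and 3.05, with an SD of 0.05, and its SD in primary spheres was 0.19. The levels of the arrays of a culture differed by at most 0.11. Its dimmer probe had an SD of 0.25 in passaged spheres, with arrays of a culture up to 0.54 apart. Some isoforms of other types also varied little, such as Pcdha12 (SD 0.14) and Pcdhb17 (0.12) in primary spheres and Pcdhb20 (0.16) in passaged spheres.

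Set beside all named genes, the clustered protocadherins had a similar median SD in SMG and a larger one in spheres, as a description without a test. The median SD over the isoforms that were well above background in at least 2 samples was 0.26 in wild-type SMG (32 isoforms), 0.22 in TH-MYCN SMG (29 isoforms), 0.31 in primary spheres (30 isoforms) and 0.39 in passaged spheres (26 isoforms). The median over all named genes was 0.25, 0.27, 0.18 and 0.14 in the same order. In passaged spheres the alpha and beta medians were alike, at 0.40 and 0.39, whereas in primary spheres they were 0.61 and 0.31. The gamma medians were 0.55 and 0.78 in wild-type and TH-MYCN SMG, and 0.38 and 0.20 in primary and passaged spheres. They rest on differing sets of 4, 3, 3 and 1 isoforms in turn, so they are not set against each other. The brighter probe of Pcdhga9, an isoform in each set, had SDs of 0.46, 0.16, 0.12 and 0.20. In wild-type SMG its level was 3.73 to 4.41 in samples 1 to 4 and 4.73 to 4.9 in samples 5 to 8. These samples were on separate slides, whose levels overlapped in TH-MYCN SMG. An SD over 0.9 was found for 5 of the 26 isoforms in passaged spheres (19.2%), against 3.24% of all named genes, and for 3 of the 30 in primary spheres (10%), against 3.58%. Without passaged culture 2 the count was 2 (7.69%, against 3.01% of all named genes), and without primary culture 5 it was 1 (3.33%, against 3.47%). With normexp it was 2 in passaged spheres (7.69%, against 1.23%) and 0 in primary spheres (against 0.576%). In TH-MYCN SMG no isoform and 3% of all named genes had such an SD. These shares are a description of few samples, since passaged spheres came as 4 cultures, and the isoforms are neighbouring genes and not independent of each other. Over all named genes, the largest difference between the arrays of a passaged culture had a median of 0.17.

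**Figure D2:**
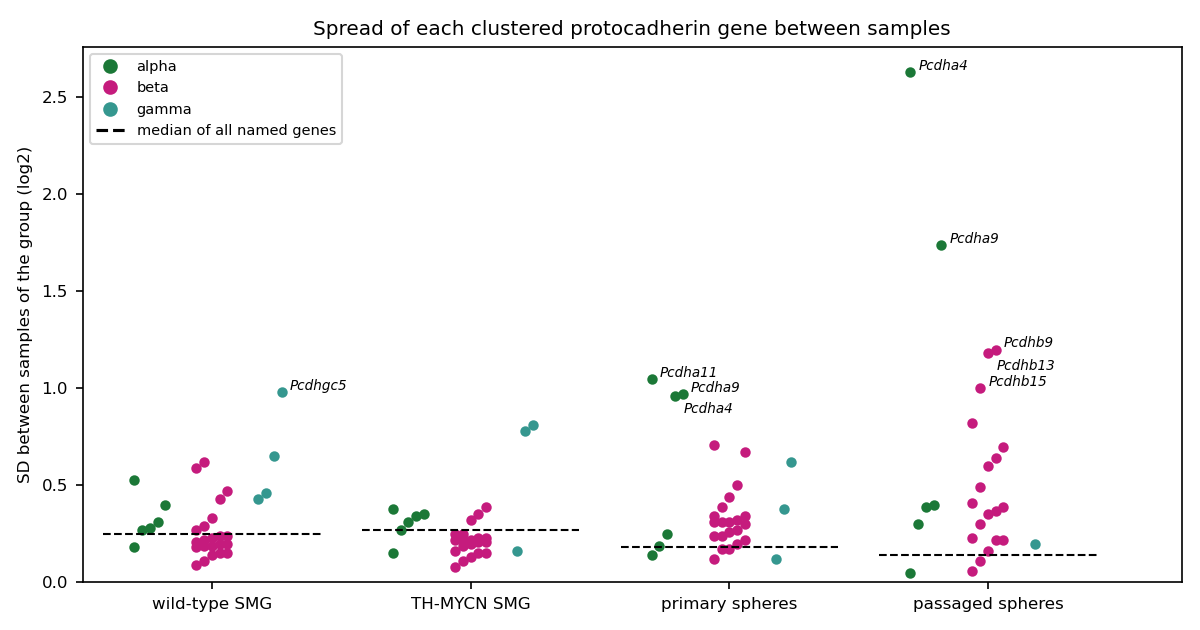
SD of the level between the samples of each group (log2 scale) for each clustered protocadherin gene well above background in at least 2 samples of the group, coloured by cluster; the dashed line is the median SD of all named genes. The isoforms lie about the dashed line in SMG, and Pcdha4 (2.63) and Pcdha9 (1.74) stand highest in passaged spheres.

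Markers of other cell types also differed between primary cultures. The mean level of 14 Schwann and satellite glia markers ran from -1.47 to -0.59 in primary cultures 1 to 4, which share a slide, and from -3.12 to -2.84 in cultures 5 to 8, which share another. The mean of 12 fibroblast markers was -1.71 to -0.48 and -3.02 to -2.20 in these cultures. The 3 alpha isoforms with an SD over 0.9 in primary spheres varied on both slides. The SD of Pcdha4 was 1.29 over cultures 1 to 4 and 0.67 over cultures 5 to 8, that of Pcdha9 0.56 and 1.36, and that of Pcdha11 0.63 and 1.29. The other alpha isoforms tested had smaller SDs, by their brighter probes: Pcdha8 0.18 and 0.32, Pcdha12 0.19 and 0.09, and Pcdhac2 0.14 and 0.20. Passaged cultures were alike in the glial mean, which ran from -3.42 to -3.22, while their mean of the mature neuron markers ran from 3.41 in culture 1 to 3.82 in culture 2. The part of these cell types in the spread of the isoforms was not tested.

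The comparison of TH-MYCN with wild-type SMG asks how the ganglion at 3 weeks differs with the transgene. By the brightest kept probe of each gene, alpha isoforms were lower or not called, and beta isoforms moved in both directions. Of the 29 isoforms tested, 3 were higher and 8 lower at an adjusted p under 0.05 (limma, Benjamini-Hochberg over all tested genes), and 18 were not called. Over all 15845 genes tested, 65.7% were called, 21.9% as higher and 43.8% as lower, and the share of isoforms called was not above this background. The median difference of the isoforms was -0.03, against -0.22 over all tested genes. The isoforms called lower were Pcdha9, Pcdha12 and Pcdhac2 of the alpha cluster and Pcdhb3, Pcdhb6, Pcdhb8, Pcdhb9 and Pcdhb14 of the beta cluster.

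In the alpha cluster, Pcdhac2 and Pcdha9 fell most. Pcdhac2 ran from 4.30 over a median of 4.72 to 5.14 in wild-type SMG and from 3.40 over 3.88 to 4.39 in TH-MYCN SMG, and the ranges overlapped slightly. The difference was -0.83 ± 0.16 (SE, n = 8 per group, limma adjusted p = 0.000257), a 1.78-fold lower level. Its second probe fell by 1.20 ± 0.24 (SE, adjusted p = 0.000468 over all kept probes). Pcdha9 fell by 0.83 ± 0.17 (SE, adjusted p = 0.0005), from -1.81, -1.31 and -0.69 (lowest, median, highest) in wild-type SMG to -2.70, -2.07 and -1.62, and was not called when all 4 groups shared 1 fit (adjusted p = 0.0744). Pcdha12 fell by 0.61 ± 0.14 (SE, adjusted p = 0.000944). Pcdha4, Pcdha8 and Pcdha11 differed by -0.23 ± 0.15, 0.01 ± 0.09 and -0.28 ± 0.22 (SE) and were not called.

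The probes of Pcdha8 disagreed. The brighter probe ran from 0.44 to 0.97 in wild-type SMG and from 0.61 to 1.03 in TH-MYCN SMG. The dimmer probe ran from -4.11 to -3.17 in wild-type SMG and from -2.64 to -1.85 in TH-MYCN SMG, with no overlap, a rise of 1.17 ± 0.14 (SE, limma adjusted p = 4.13e-06 over all kept probes). Pcdha8 was called higher with the mean of its kept probes (0.59, limma adjusted p = 0.000123). It was also called higher with arrays shifted to the median of all tested genes (0.23, limma adjusted p = 0.0266). Whether a probe reads the variable exon of 1 isoform or sequence that isoforms share was not tested, which also holds for the bright probes of Pcdhac2 and Pcdhga9.

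In the beta cluster the 3 isoforms that rose, Pcdhb16, Pcdhb17 and Pcdhb18, are neighbours on the chromosome. Pcdhb16 ran from -0.69 over -0.34 to -0.09 in wild-type SMG and from -0.06 over 0.28 to 0.49 in TH-MYCN SMG, with no overlap. The rise was 0.57 ± 0.11 (SE, n = 8 per group, limma adjusted p = 0.000226), or 1.48-fold. Pcdhb17 rose by 0.50 ± 0.11 (SE, adjusted p = 0.000922), from a median of -0.37 to 0.09, and 1 wild-type sample lay within the TH-MYCN range. Pcdhb18 rose by 0.33 ± 0.11 (SE, adjusted p = 0.0111), a call lost with normexp (0.19, adjusted p = 0.106). Pcdhb8 fell by 0.56 ± 0.13 (SE, adjusted p = 0.00125), from a median of -3.48 to -4.11. Pcdhb14 fell by 0.46 ± 0.10 (SE, adjusted p = 0.000775), and every TH-MYCN sample, from -1.85 to -1.25, lay below every wild-type sample, from -1.21 to -0.81. The 3 gamma isoforms tested were not called by their brightest probes. Pcdhga9 differed by -0.19 ± 0.16 (SE) by its brighter probe, and its dimmer probe fell by 0.35 ± 0.11 (SE, adjusted p = 0.0106). The brighter probe of Pcdhga9 differed by 0.16 within slide 1 and -0.54 (adjusted p = 0.0035) within slide 2, but the difference between the slides was not called (adjusted p = 0.393).

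These counts depend on how arrays are scaled. With a shift of every array that sets the median difference over all genes to 0, 11 isoforms were higher and 5 lower, and over all genes the higher calls went from 33.3% to 54.4% of calls. Pcdhb16, at 0.79, and Pcdhac2, at -0.61, were still called on that scale. Slides 1 and 2 held 4 samples of each genotype. Pcdhac2 differed by -0.67 within slide 1 and -0.99 within slide 2, and Pcdhb16 by 0.57 within each. Within slide 2 alone 4 isoforms were higher and 9 lower. Within slide 1 alone 1 was higher and 4 lower, and Pcdha12 (-0.50), Pcdhb17 (0.47) and Pcdhb18 (0.29) were not called. Pcdhb6 was called within neither slide (-0.28 and -0.25). Pcdhb9 (-0.36 ± 0.15, SE, adjusted p = 0.0406) was called in 5 of 16 removals of 1 sample. Markers of cell types moved as well: 17 of 20 mature neuron, 11 of 14 glial and 9 of 12 fibroblast markers were lower in TH-MYCN SMG, and 7 of 10 macrophage markers were higher. The neuron marker mean ran from 5.43 to 5.73 in wild-type and from 4.65 to 5.23 in TH-MYCN SMG, and the glial mean from 1.96 to 2.23 and from 0.89 to 1.74. Their part in the differences of the isoforms between the genotypes was not tested.

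Setting primary spheres against SMG of TH-MYCN hemizygotes compares cultured cells with ganglia of the same genotype. Of 21 beta isoforms tested, 10 were higher in spheres and 11 were not called, and Pcdhac2 was lower. Of 30 isoforms tested, 11 were higher, 1 was lower and 18 were not called, with 83.2% of all 15650 tested genes called, 50.2% as higher and 32.9% as lower. The median difference of the isoforms was 0.20, against 0.27 over all tested genes. The higher isoforms were 10 beta genes, Pcdhb2, Pcdhb5, Pcdhb6, Pcdhb7, Pcdhb12, Pcdhb16, Pcdhb17, Pcdhb19, Pcdhb20 and Pcdhb21, and Pcdhga9 of the gamma cluster.

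Pcdhb2 rose most, from -3.61 over -3.20 to -2.67 in TH-MYCN SMG to -2.90 over -2.14 to -1.58 in primary spheres, and the ranges overlapped. The difference was 1.05 ± 0.19 (SE, n = 8 per group, limma adjusted p = 6.83e-05), or 2.06-fold. Pcdhb16 rose by 0.90 ± 0.11 (SE, adjusted p = 1.55e-06), to a range of 0.85 to 1.53 that did not overlap that of TH-MYCN SMG. Pcdhb21 rose by 0.57 ± 0.10 (SE, adjusted p = 4.2e-05), from between 1.04 and 1.23 to between 1.40 and 2.02, again with no overlap. Pcdhb19 was well above background on 1 of 8 TH-MYCN SMG arrays and on all 8 primary sphere arrays, with a fitted difference of 0.84 ± 0.11 (SE, adjusted p = 2.66e-06) whose size is uncertain because the SMG signals were near background. Pcdhga9 rose by 0.42 ± 0.08 (SE, adjusted p = 7.55e-05), with no overlap, but its difference was -0.10 after quantile normalization. Its dimmer probe rose by 0.44 ± 0.11 (SE, adjusted p = 0.00114).

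Pcdhac2 fell again by its brighter probe. Primary spheres ran from 2.72 over 2.98 to 3.24, all below the TH-MYCN SMG range of 3.40 to 4.39. The difference was -0.86 ± 0.13 (SE, limma adjusted p = 1.43e-05), a 1.81-fold lower level, and the second probe fell by 0.91 ± 0.25 (SE, adjusted p = 0.00325). By the brightest probe of each gene, Pcdhb6 was the isoform called in opposite directions, with medians of -0.19 in wild-type SMG, -0.42 in TH-MYCN SMG and 0.00 in primary spheres. It fell by 0.26 ± 0.08 (SE, adjusted p = 0.00916) between the SMG groups and rose by 0.40 ± 0.09 (SE, adjusted p = 0.000669) between TH-MYCN SMG and primary spheres. TH-MYCN SMG samples enter both of these differences, so that they are not independent. The same holds for the dimmer probe of Pcdhga9, which was called lower (-0.35) between the SMG groups and higher (0.44) in primary spheres.

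**Figure D3:**
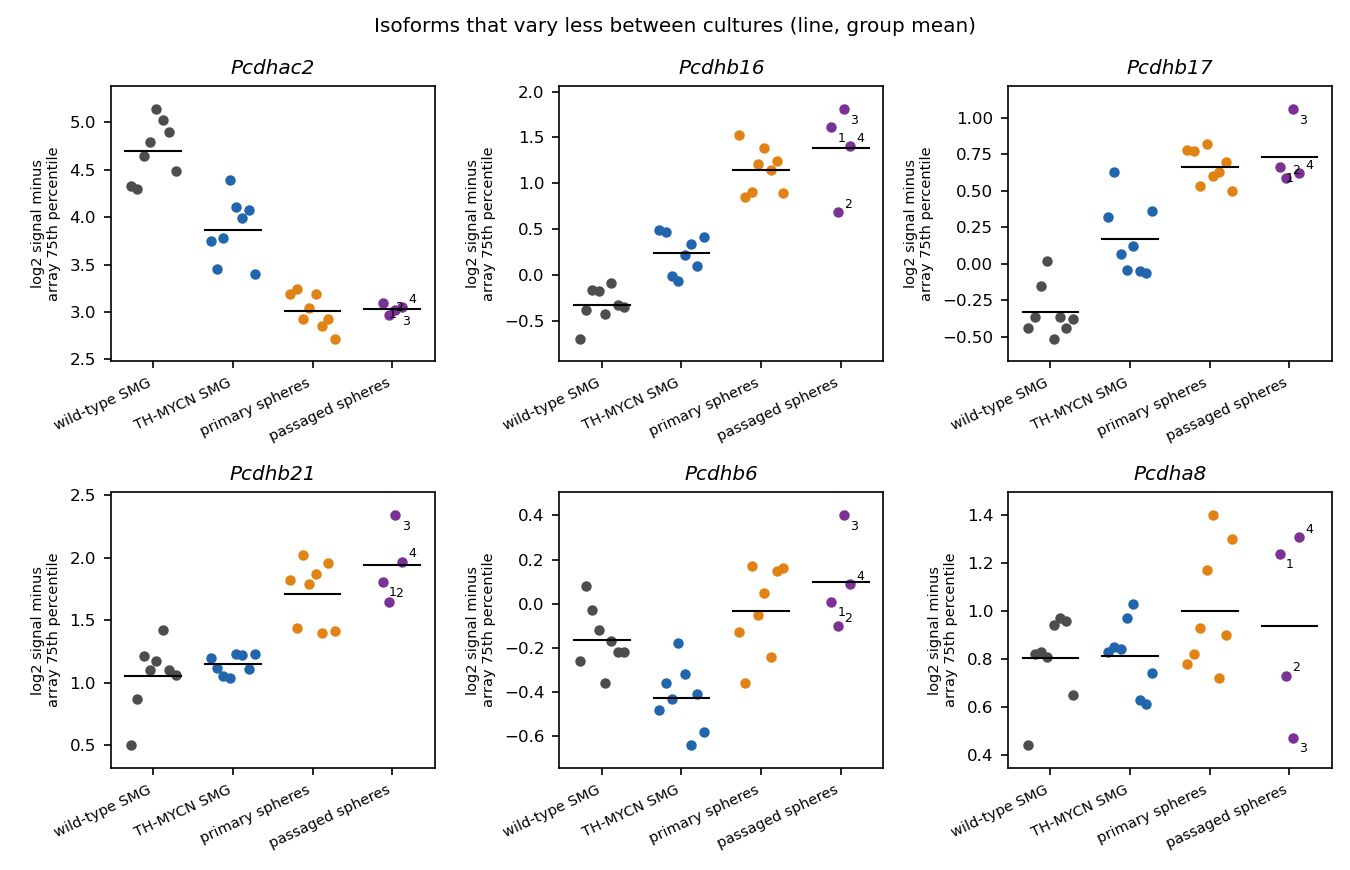
Level of 6 isoforms (log2 processed signal relative to the 75th percentile of its array) in each sample of the 4 groups; points are samples, lines are group means, and passaged cultures are numbered. Pcdhac2 is lower in TH-MYCN SMG and lower again in spheres, Pcdhb16 and Pcdhb17 are higher in each, and Pcdha8 (brighter probe) overlaps in all groups.

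With the arrays shifted to a median gene difference of 0, 5 isoforms were higher and 4 lower in primary spheres, and over all genes the higher calls went from 60.4% to 48.3% of calls. Pcdhb2, Pcdhb16, Pcdhb17, Pcdhb19 and Pcdhb21 were the higher calls on that scale, and Pcdhac2 (-1.13), Pcdhb9, Pcdhb3 and Pcdha12 the lower ones. Pcdhga9 (0.15) and Pcdhb6 (0.12) were not called on it, nor was Pcdhb6 (-0.04) between the SMG groups. Pcdhb7 was called in 6 and Pcdhb20 in 15 of 16 removals of 1 sample. No slide held both SMG and spheres, so that slide and group cannot be told apart here. The markers of other cell types moved with this comparison: 12 of 14 glial, 11 of 12 fibroblast, 11 of 12 endothelial, 8 of 8 smooth muscle and 9 of 10 macrophage markers tested were lower in primary spheres. The mean of the glial markers went from between 0.89 and 1.74 to between -3.12 and -0.59, that of the fibroblast markers from between 3.41 and 3.79 to between -3.02 and -0.48, and that of the macrophage markers from between 1.27 and 2.06 to between -5.08 and -4. Of the mature neuron markers 6 were higher and 9 lower, with a mean of 4.65 to 5.23 in TH-MYCN SMG and 3.55 to 3.83 in primary spheres. The part of these cell types in the differences of the isoforms was not tested.

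The comparison of passaged with primary spheres asks what changes over 5 passages. Of the 30 isoforms tested, none was higher, 1 was lower and 29 were not called, with 11.7% of 14156 tested genes called, 5.16% as higher and 6.54% as lower. The median difference was 0.05, against 0.01 over all tested genes. The lower isoform, Pcdhb11, had levels of -5.69 over a median of -4.61 to -3.62 in primary spheres and of -5.47, -6.21, -5.97 and -5.96 in passaged cultures 1 to 4. It was well above background on 5 of 8 primary sphere arrays and on none of the 8 passaged sphere arrays. The fitted difference was -1.28 ± 0.33 (SE, limma adjusted p = 0.028), and no fold is given because the mean of the primary spheres, -4.62, was not above the lowest level well above background averaged over the passaged sphere arrays. The call was lost with normexp (-0.05, adjusted p = 0.803) and without passaged culture 2, 3 or 4 (adjusted p = 0.0858, 0.0526 and 0.0798). It was also lost when slide entered the fit as a block (adjusted p = 0.0857), within slide 3 (-1.08, adjusted p = 0.109), within slide 4 (-1.47, adjusted p = 0.0644) and with the replicate number as a block (-1.02, adjusted p = 0.0501).

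Differences that were large but not called belong to the isoforms that varied between cultures. Pcdha4 differed by -1.43 ± 0.92 (SE, adjusted p = 0.327), Pcdhb13 by -1.20 ± 0.37 (SE, adjusted p = 0.0557) and Pcdha9 by -0.71 ± 0.70 (SE, adjusted p = 0.528). For Pcdhb13 every passaged culture lay below every primary culture, but only narrowly. The highest passaged culture, culture 4, was at -3.31 and the lowest primary culture at -3.30. On 1 of its arrays passaged culture 4 read -3.20. Pcdhb13 was called in 3 of 12 removals of 1 sample, and its difference was -0.64 (limma adjusted p = 0.043) without passaged culture 2. It was also called with slide as a block (adjusted p = 0.0484), with all 4 groups in 1 fit (0.00476), without a filter (0.0342) and with a stricter one (0.0493), and was -0.24 (adjusted p = 0.284) with normexp. The isoforms with the smallest standard errors differed little: Pcdhga9 by -0.05 ± 0.09, Pcdhac2 by 0.03 ± 0.10 and Pcdhb17 by 0.07 ± 0.10 (SE).

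**Figure D4:**
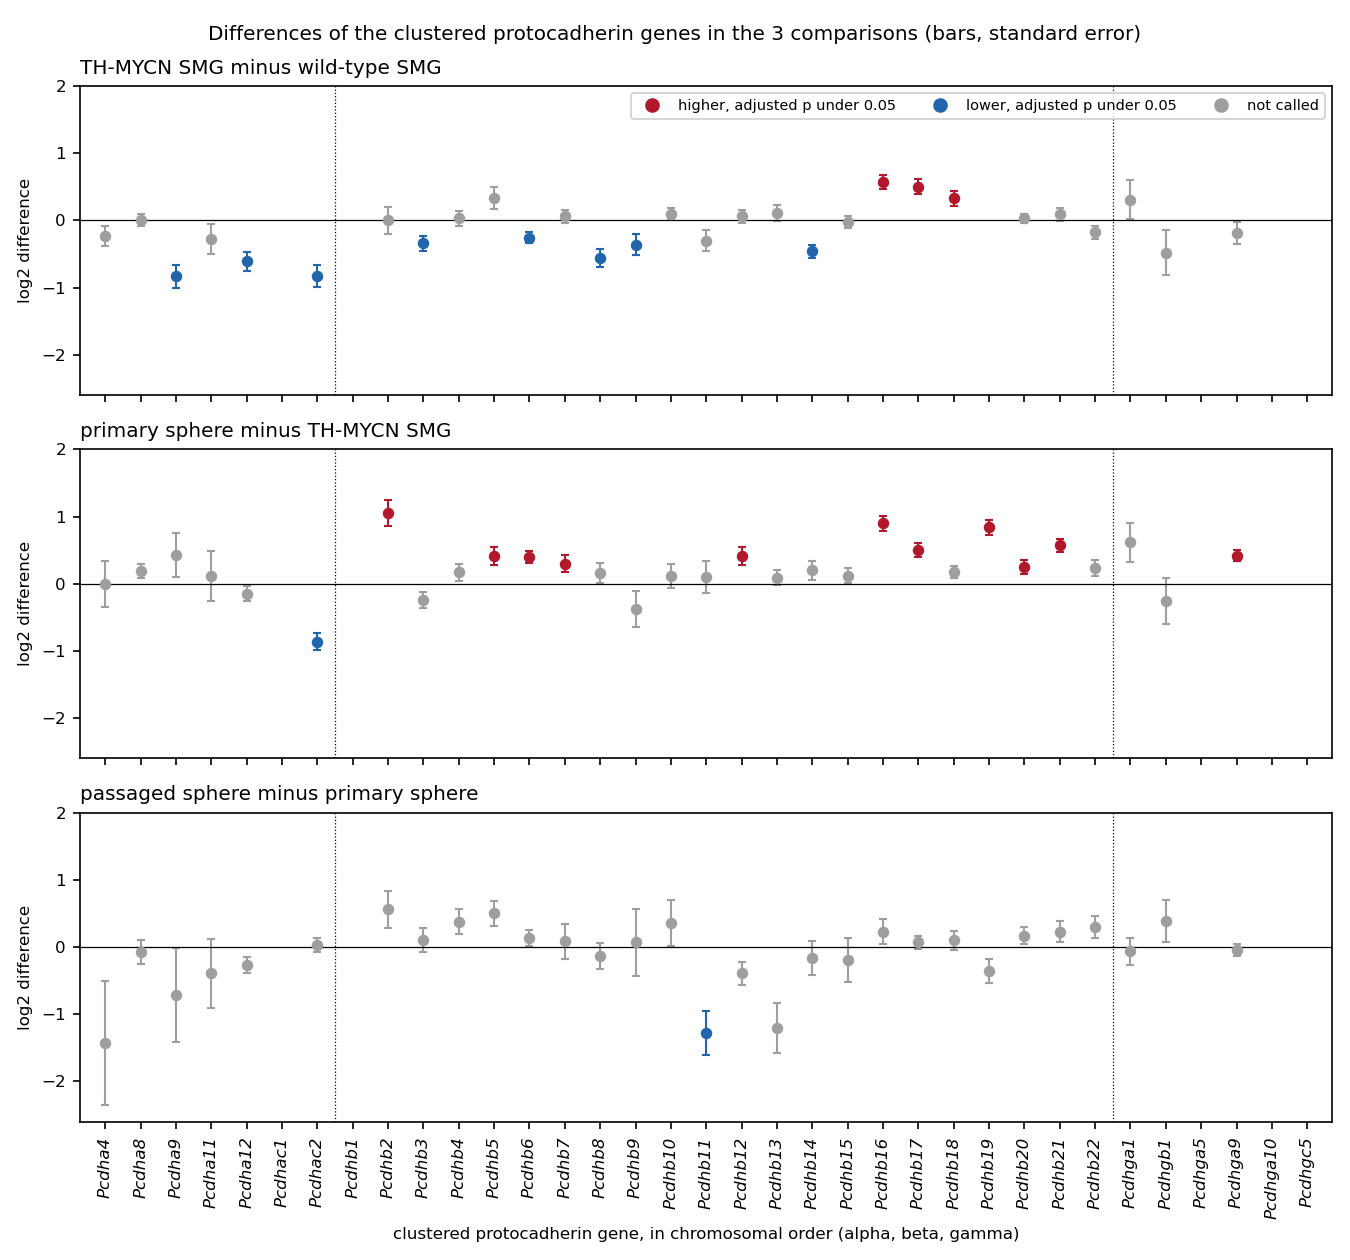
Log2 difference of each tested clustered protocadherin gene in the 3 comparisons, in chromosomal order with dotted lines between the alpha, beta and gamma clusters; bars are standard errors and colours mark the calls at an adjusted p under 0.05. Pcdhac2 is lower in the upper and middle panels, the calls in the middle panel are mostly beta genes, and Pcdhb11 is the single call in the lower panel.

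A list of genes for CTCF, cohesin and its loaders and regulators, which also held Yy1 and Zfp143, was compared. CTCF and cohesin act on the protocadherin promoters. The listed genes were mainly higher in TH-MYCN SMG and higher again in primary spheres, in comparisons that share the TH-MYCN SMG samples. Of the 13 tested, 11 were higher in TH-MYCN SMG than in wild-type SMG and none was lower, and 13 of 13 were higher in primary spheres than in TH-MYCN SMG. Over all tested genes, 21.9% were higher and 43.8% lower in the former comparison, and 50.2% and 32.9% in the latter. None was called between passaged and primary spheres (limma). The median differences of this list were 0.42, 0.80 and 0.13. Ctcf, the insulator protein that anchors promoter-enhancer loops in the clusters, rose by 0.95 ± 0.11 (SE, adjusted p = 2.46e-06) and then by 1.03 ± 0.11 (SE, adjusted p = 1.28e-07), and differed by 0.25 ± 0.08 (SE, adjusted p = 0.0542) after passaging. Rad21, the cleavable cohesin subunit, rose by 0.63 ± 0.11 (SE, adjusted p = 0.00014) and by 0.93 ± 0.11 (SE, adjusted p = 5.8e-07). Stag1, another cohesin subunit, and Pds5b, a cohesin regulator, rose by 0.76 ± 0.13 and 0.65 ± 0.11 (SE) in TH-MYCN SMG.

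The silencing list had 20 tested genes, with 11 higher and 4 lower calls for TH-MYCN SMG, 13 higher and 3 lower for primary spheres, and 5 of 19 higher and none lower in passaged spheres, where 5.16% of all tested genes were higher. The shares over all tested genes in the SMG and primary sphere comparisons are those given for CTCF and cohesin. Smchd1, which represses clustered protocadherin genes, rose by 0.89 ± 0.13 (SE, adjusted p = 2.32e-05), by 1.02 ± 0.12 (SE, adjusted p = 4.43e-07) and by 0.24 ± 0.07 (SE, adjusted p = 0.0467) in the 3 comparisons in turn. Dnmt3b, the de novo DNA methyltransferase of these promoters, rose by 1.42 ± 0.16 (SE, adjusted p = 1.58e-06) and by 0.97 ± 0.15 (SE, adjusted p = 1.05e-05), and differed by 0.21 ± 0.08 (SE, adjusted p = 0.107) after passaging. Setdb1, an H3K9 methyltransferase, rose by 0.67 ± 0.12, 0.45 ± 0.12 and 0.32 ± 0.10 (SE, adjusted p = 0.000142, 0.0019 and 0.047). The largest rises in TH-MYCN SMG were those of Uhrf1 (5.17 ± 0.29), Cdca7 (4.05 ± 0.23) and Hells (2.80 ± 0.28, SE), which act in the maintenance of DNA methylation and are abundant in dividing cells. All 16 mitosis genes measured were likewise higher in TH-MYCN SMG, by a median of 5.56, and in primary spheres, by a median of 1.62, and the part of cell division in these rises was not tested. Rest, a repressor of neuronal genes, and Dnmt3l differed by -2.85 ± 0.39 and -2.51 ± 0.34 (SE, both called) in primary spheres, where Rest was well above background on 2 of 8 arrays.

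Genes for the processing of protocadherins and for their signalling were called in both directions. Among the 22 genes of this list, TH-MYCN SMG had 3 higher and 12 lower, while 12 were higher and 2 lower in primary spheres, and 1 was higher in passaged spheres. The shares over all tested genes were 21.9% higher and 43.8% lower, 50.2% and 32.9%, and 5.16% and 6.54% in turn. Ptk2b, the kinase PYK2, which binds the cytoplasmic part of alpha and gamma protocadherins, fell by 0.99 ± 0.26 (SE, adjusted p = 0.00298) in TH-MYCN SMG and fell by 3.61 ± 0.23 (SE, adjusted p = 3.4e-10) in primary spheres. Psen2, a subunit of the gamma-secretase that cleaves protocadherins, had differences of -0.95 ± 0.19 and -1.46 ± 0.17 in the same comparisons (SE, adjusted p = 0.00041 and 3.93e-07). Ret, a receptor tyrosine kinase reported to associate with protocadherins, fell by 0.92 ± 0.24 (SE, adjusted p = 0.00293) in TH-MYCN SMG and rose by 1.23 ± 0.19 (SE, adjusted p = 1.71e-05) in primary spheres. Marcks, a membrane-bound actin regulator, rose by 0.31 ± 0.06 (SE, adjusted p = 0.0121) in passaged spheres.

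The non-clustered protocadherins and the classical cadherins, which lie elsewhere in the genome, were also compared. Of 11 non-clustered protocadherins tested, 4 were higher and 6 lower in primary spheres, where 50.2% of all tested genes were higher and 32.9% lower, with differences from -5.54 to 2.73, against -0.86 to 1.05 for the 30 clustered isoforms. Pcdh7 and Pcdh18 were above background on none of the primary sphere arrays and were at least 19.6-fold and at least 8.27-fold lower than in TH-MYCN SMG. Pcdh9 fell by 4.16 ± 0.25 (SE, adjusted p = 1.78e-10). Of 15 classical cadherins tested, 4 were higher and 10 lower, among them Cdh5, the endothelial cadherin, at least 15.9-fold lower, and Cdh1, E-cadherin, at least 10.4-fold lower, both with no primary sphere array above background, and the glial cadherin Cdh19, which fell by 5.24 ± 0.72 (SE, adjusted p = 3.96e-06). In TH-MYCN SMG 1 of 11 non-clustered protocadherins was higher (Pcdh8, 0.69 ± 0.22, SE) and 4 were lower, led by Pcdh7 (-1.16 ± 0.21, SE), and of the classical cadherins Cdh15 rose by 3.19 ± 0.50 (SE, adjusted p = 5.49e-05). After passaging Pcdh19 rose by 0.70 ± 0.20 (SE, adjusted p = 0.0466) and Cdh8 by 1.34 ± 0.38 (SE, adjusted p = 0.0431), while Cdh13 fell by 1.66 ± 0.31 (SE, adjusted p = 0.00621). Whether the clustered isoforms moved less than these genes was not tested.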

How the data were processed

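Total RNA was measured on 32 1-colour (Cy3) Agilent arrays. Per the file headers, spots were read with Feature Extraction 11.5.1.1, and the deposited processed signal is an intensity after background subtraction, not normalized between arrays. The deposited flags mark spots well above background, outliers and saturation. The authors' value table holds log2 values: up to a shift fixed for each probe, 99.9% match (tolerance 0.05) the scaled log2 signal used here. This settles scale and direction, while what each probe was centred on is unknown. Medians per column were -0.48 to -0.02 (wild-type SMG), -0.39 to -0.11 (TH-MYCN SMG), -0.08 to 0.07 (primary spheres) and 0.15 to 0.51 (passaged spheres). Per the labels, 40 or 200 ng of RNA were labelled; the amount per sample is unknown here. The number of arrays limits the precision.

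The log2 processed signal minus the 75th percentile was computed without control spots. The percentile included outlier spots (109 to 211 per array), which were left out when the spots of a probe were averaged. No spot was saturated. RefSeq accessions, matched without versions to a table of assembly GRCm38.p6, named 27235 of 55681 probes. A probe was kept if well above background in at least 4 samples of a comparison, and a gene was its brightest kept probe. Groups were compared in pairs with limma 3.58.1 (lmFit, eBayes, two-sided; R 4.3.3, data.table version 1.17.8), with Benjamini-Hochberg adjustment over all tested genes and calls at 0.05; the steps were tested on simulated data. A fold written "at least" sets the brighter group against, per array, the higher of the dim probe's signal and the lowest signal well above background.

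The isoforms and gene lists were chosen with earlier results of these data known. Isoforms named by rule were the C-type isoforms, up to 4 called isoforms per cluster and comparison with the largest differences among those detected on every array of the higher group, isoforms called in opposite directions, and up to 3 called genes per list. The isoforms described for their spread, Pcdhb11, Pcdhb13, Pcdhb18, Pcdhb7, Pcdhb8, Pcdhb10 and the probes of Pcdha8 were also chosen after their values were seen. Alternatives were other scalings, background correction (normexp, offset 50, on median signals), filters, probes, fits, slides, the replicate number, the value table and each sample left out.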

Additional observations from a re-analysis of the deposited data

Results flagged for a closer look

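Among 129 sets of values (1 probe in 1 group with at least 2 samples above background), 6 had a sample far from the others by Dixon's ratio, and chance flags about 1 in 20 groups. In wild-type SMG sample 1 the dimmer probe of Pcdha8 was at -4.11, below the other samples at -3.53 to -3.17. In wild-type SMG sample 6 Pcdhb4 was at -1.77 (others -1.46 to -1.18) and Pcdhga1 at -6.63 (others -5.86 to -5.32, with 4 of 8 samples above background). In TH-MYCN SMG sample 8 Pcdhb4 was at -0.85 (others -1.54 to -1.21) and Pcdhb15 at -2.08 (others -2.57 to -2.37). In passaged culture 3 Pcdhb17 was at 1.06 (others 0.59 to 0.66). Pcdha4 and Pcdhb13 in passaged spheres did not meet this measure. The Pcdha4 cultures are spread over the whole range. For Pcdhb13 culture 2 was at -5.97 (others -4.17 to -3.31), a gap that fell short of the cutoff for 4 values.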

How the results depend on the processing

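Each setting below changed 1 choice. Between TH-MYCN and wild-type SMG, the shift to the median gene gave 11 higher and 5 lower isoforms, and slide 1 alone gave 1 and 4. Between primary spheres and TH-MYCN SMG, normexp background correction gave 23 higher, the shift to the median gene gave 5 higher and 4 lower, and counting each probe on its own (chosen after seeing the data) gave 2 lower. Between passaged and primary spheres the lower calls were 0 with normexp, within slide 3 and within slide 4, and 2 without a filter or with all 4 groups in 1 fit. Reversed in the step to primary spheres were Pcdhga9 (-0.10, quantile), Pcdhb20 (-0.02, shift to the median gene), and Pcdhb9 and Pcdhgb1 (0.29 and 0.56, normexp). Leaving out 1 sample gave 3 to 4 higher and 7 to 9 lower (TH-MYCN SMG), 9 to 13 higher and 1 to 3 lower (primary spheres), and 0 to 0 higher and 1 to 2 lower (passaged spheres). The lower count was 2 without TH-MYCN SMG 2 or primary culture 7 and 3 without primary culture 8 in the step to primary spheres, and 2 without primary culture 1 or passaged culture 3 after passaging. A within-slide comparison of primary spheres with SMG was not possible, since they share no slide. Quantile normalization moved the higher share of all-gene calls after passaging from 44.1% to 32.4%. Counts for the gene lists were recomputed in the same settings, the removals of 1 sample included. Over all lists, comparisons, directions and settings, 195 of these counts were marked as moved, and they are not printed here. The cause of these changes was not tested.

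The labels do not say that sample numbers pair the groups, and not every pair deviated together. Over all tested genes, deviations of same-numbered samples correlated at -0.01 to 0.37, -0.08 to 0.15 and 0.08 to 0.28 in the 3 comparisons. After passaging each number correlated best with itself over all tested genes, a hint from the data. Over the isoforms alone the correlations were -0.14 to 0.30, -0.02 to 0.57 and -0.15 to 0.74. After passaging, numbers 1 and 3 then correlated better with another number (0.27 and 0.38) than with themselves (0.15 and -0.15). With the replicate number as a block the counts were 3 higher and 7 lower, 11 and 1, and 0 and 0. On leaving out 1 sample the median SD of isoforms was 0.23 to 0.27 (wild-type SMG), 0.21 to 0.24 (TH-MYCN SMG), 0.27 to 0.32 (primary spheres) and 0.27 to 0.44 (passaged spheres, 0.29 with normexp); the count of isoforms with an SD over 0.9 was 0 to 1, 0 to 0, 1 to 3 and 2 to 6. With normexp that count was 0, 0, 0 and 2, and with quantile normalization 0 in wild-type SMG. These settings were chosen after seeing the data. Low signal limits Pcdhac1, Pcdhgc5 and most gamma isoforms, and in passaged spheres Pcdhb11.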
